A study of Mus musculus with 7 samples.

Results

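The genes described here are the parts of the MHC class I pathway that make, carry and display peptides: the light chain B2m, the heavy chains H2-K1 and H2-D1, the peptide transporter subunits Tap1 and Tap2, the loading factor Tapbp (tapasin), the immunoproteasome subunits Psmb8, Psmb9 and Psmb10, and the class I transactivator Nlrc5. They were picked by symbol as named parts of this pathway, with no threshold on a measured value, and are 10 of the 38293 genes in the count table. All 10 passed the filter on low counts that left 14869 genes for testing. The RNA came from scraped ileum. Scraping left the muscle behind and took the epithelium together with the connective tissue and immune cells under it, the lamina propria. The mice were male C57BL/6NRJ animals, 8 weeks old at the start and housed singly, and all of them ate a purified diet low in calcium with 40% of its energy from fat. In the normal cys group (4 mice) the diet held 0.38% cystine in total, and in the low cys group (3 mice) it held 0.08%, with the added cystine replaced by alanine. Each diet was fed for 2 weeks after 1 week of acclimatization. The labels give no batch, so none was examined. Library totals ran from 19712355 to 22412703 counts in normal cys mice and were 21942518, 15708368 and 14888760 counts in low cys mice 1, 2 and 3. Mice are numbered within each group, and the numbers do not pair the groups.

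MHC class I molecules show peptides from inside the cell to CD8 T cells. Proteasomes cut proteins into peptides, Tap1 and Tap2 pump them into the endoplasmic reticulum, and tapasin holds the empty class I molecule at the transporter until a fitting peptide binds. Interferon gamma raises most genes of the pathway and replaces 3 catalytic proteasome subunits, Psmb5, Psmb6 and Psmb7, by Psmb8, Psmb9 and Psmb10, while Nlrc5 acts at class I promoters together with DNA-binding factors. In the intestine the absorptive epithelium and the lymphocytes within it both carry class I molecules.

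In the positions of the deposited table (build GRCm38), 7 of the 10 genes lie on chromosome 17, in the major histocompatibility region. Psmb9 (34181988 to 34187764, minus strand), Tap1 (34187553 to 34197225, plus strand), Psmb8 (34197721 to 34201454, plus strand) and Tap2 (34203527 to 34216321, plus strand) stand side by side. Psmb9 and Tap1 start on opposite strands and their exons overlap (3.87% of the exon bases of Tap1, 5.79% of those of Psmb9), so that reads there can be assigned to one gene or the other only where strand is used in counting. H2-K1 (33996017 to 34000333, minus strand), Tapbp (33915899 to 33929288, plus strand) and H2-D1 (35262730 to 35267499, plus strand) are on the same chromosome. B2m is on chromosome 2 (122147686 to 122153083, plus strand). Psmb10 (105935728 to 105938392, minus strand) and Nlrc5 (94472763 to 94527272, plus strand) are on chromosome 8.

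The sequences before the starts of the class I chains and between Tap1 and Psmb9 are shown because these genes are known to be switched on together by factors that bind there. They come from RefSeq on GRCm38.p6, whose promoter table held 8 of the 10 genes, and all read 5′ to 3′ on the named strand. Capitals mark 4 sets of letters searched on both strands: AANNGAAA, the core of an interferon regulatory factor element, GGGATTCCC, a kappaB element, TGACG, a cyclic AMP response element core, and CCAAT. The first 3 sequences end at the base before a RefSeq start and the last spans the bases between both RefSeq starts. RefSeq starts differ from some of the deposited positions given above. By the deposited positions the H2-D1 sequence lies inside H2-D1, and the last lies inside Psmb9. Distances to a start are counted from the RefSeq start.
B2m, chr2:122147507-122147686, plus strand: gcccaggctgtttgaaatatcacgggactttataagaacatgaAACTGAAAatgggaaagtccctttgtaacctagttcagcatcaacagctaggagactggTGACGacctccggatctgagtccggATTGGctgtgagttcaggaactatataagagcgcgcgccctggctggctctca
H2-K1, chr17:34000334-34000513, minus strand: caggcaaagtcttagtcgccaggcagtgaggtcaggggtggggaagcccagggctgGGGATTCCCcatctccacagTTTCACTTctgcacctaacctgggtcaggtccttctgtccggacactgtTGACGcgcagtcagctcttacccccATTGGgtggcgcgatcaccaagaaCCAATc
H2-D1, chr17:35262914-35263093, plus strand: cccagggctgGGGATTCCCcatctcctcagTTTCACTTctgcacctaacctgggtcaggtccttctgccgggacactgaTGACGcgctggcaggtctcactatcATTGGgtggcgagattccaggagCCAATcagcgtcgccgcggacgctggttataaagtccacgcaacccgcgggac
Tap1 and Psmb9, chr17:34187331-34187555, plus strand: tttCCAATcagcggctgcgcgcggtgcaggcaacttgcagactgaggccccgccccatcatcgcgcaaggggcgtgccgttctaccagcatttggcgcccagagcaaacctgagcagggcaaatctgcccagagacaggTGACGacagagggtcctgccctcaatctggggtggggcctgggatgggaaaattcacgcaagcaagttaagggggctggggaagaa

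The upstream sequences of H2-K1 and H2-D1 were nearly the same, with 217 identical positions among 242 aligned (89.7%), and both held the kappaB letters upstream of the interferon regulatory factor letters (from 124 and 104 bases before the start in H2-K1, and from 170 and 150 in H2-D1). The kappaB letters stood in 0.301% of 32851 promoter windows of 250 bases, and among the 8 members in the table only in these 2 genes. The interferon regulatory factor letters were in B2m, H2-K1 and H2-D1, against 21.3% of all windows. The TGACG core was in 5 members (B2m, H2-K1, H2-D1, Tap1 and Psmb9), against 17.8%, and CCAAT was in those 5 and in Tapbp, against 33.8%. The matches of Tap1 and Psmb9 are the same sites in the interval between them, counted for both genes. With the near copies H2-K1 and H2-D1, the members are therefore not separate cases to set against these shares. A further pattern, TTCNNNGAA, the gamma-activated site, was searched in the same way and found in Psmb8 alone of the 8, against 7.02% of windows. A match describes letters and does not show that a factor binds.

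The order of the levels in normal cys mice, as CPM per kilobase of exon (CPM are counts scaled to a common library size after correction for library composition), put the displayed molecule first and its regulator last. The length is that of all annotated exons, 860 bases for B2m, 1270 for Psmb10, 3659 for Psmb9 and 7298 for Nlrc5. It need not be that of the expressed mRNA, so the order depends on annotation. In mean CPM without length, H2-K1 (1936.3) was above B2m (1658.3). Psmb10 then stood at 149.5, Psmb9 at 58.8 and Nlrc5, still lowest, at 26.7. B2m stood at 1928 ± 306 (SD, n = 4), H2-K1 at 742.5 ± 32.4 and H2-D1 at 512.3 ± 72.1, and the ranges of these neighbours did not overlap. Psmb10 (117.7 ± 41.0) and Tapbp (104.5 ± 12.5) overlapped each other, and Tapbp lay above all members that follow. Psmb8 stood at 42.4 ± 21.9, Tap1 at 20.6 ± 9.79, Tap2 at 17 ± 4.55 and Psmb9 at 16.1 ± 7.30, and each of these overlapped its neighbour. Nlrc5 was lowest at 3.66 ± 2.73, and its highest mouse (7.31) just reached the lowest of Psmb9 (7.29). In low cys mice the means were 1607 ± 358 (SD, n = 3) for B2m, 541.5 ± 152.2 for H2-K1, 401.7 ± 66.0 for H2-D1 and 3.99 ± 2.34 for Nlrc5 on the same scale.

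The question between the diets was whether less dietary cystine went with another level of these genes. No member passed the test: edgeR's quasi-likelihood test called 0 of 10 at a Benjamini-Hochberg adjusted p under 0.05, beside 0.0% of the 14869 genes, and the smallest adjusted p of a member was 0.794. At an unadjusted p under 0.05 edgeR called 0 of 10 members, beside 5.49% of all genes. DESeq2 called 0 of 10 after adjustment, beside 0.0728% of the 21965 genes it tested, and 1 (H2-K1) before it, beside 4.5% of the 22778 genes with a DESeq2 p. The estimate was lower in low cys for 9 of the 10 members, against 48.8% of all genes tested, and the median log2 fold change (low cys over normal cys) was -0.16, against 0.01 over all genes. Scaling by library totals alone moved the log2 fold changes up by a median of 0.14 over all genes and by 0.11 to 0.14 in the members, and then 6 of the 10 were lower, with a median of -0.04 against 0.15 over all genes. Psmb8 counts among these 6 although its estimate there rounds to 0.0. Without normal cys mouse 1 only 4 of the 10 were lower, and without low cys mouse 1 it was 5. The median ran from -0.43 without low cys mouse 2 to 0.06 without normal cys mouse 1.

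**Figure D1:**
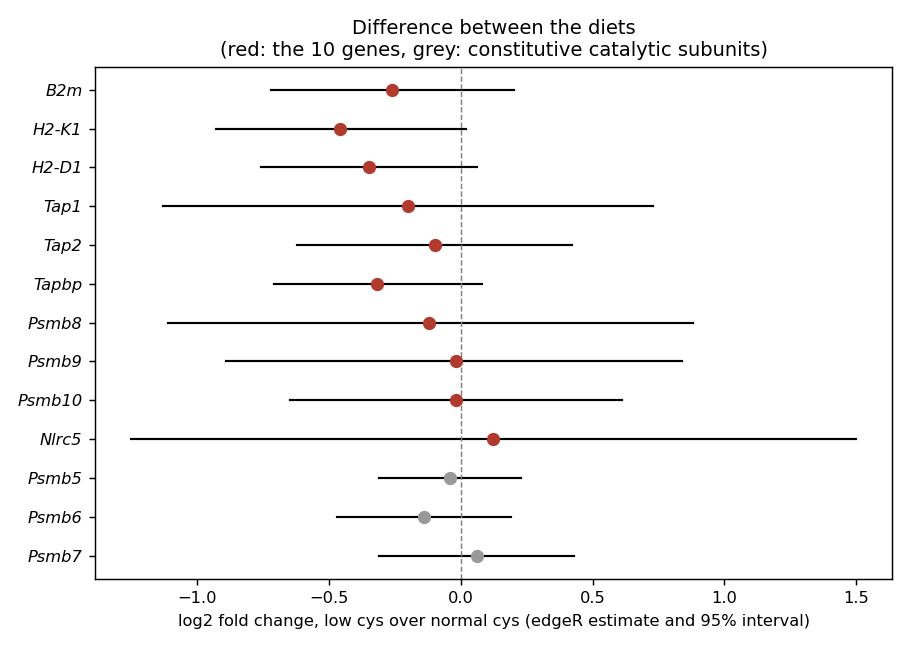
Points give the edgeR log2 fold change of low cys over normal cys for the 10 genes (red) and for the constitutive subunits Psmb5, Psmb6 and Psmb7 (grey), and lines give the 95% interval. Every interval includes 0, from the narrow one of Psmb5 to that of Nlrc5, which runs from -1.25 to 1.5.

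The heavy chain H2-K1 had the lowest estimate of the 10. Its level was 1850.0, 1948.9, 2047.8 and 1898.6 CPM in normal cys mice 1 to 4 and 970.2, 1738.4 and 1528.2 CPM in low cys mice 1 to 3. The normal cys mice lay close together, all 3 low cys mice were below all of them, and low cys mouse 1 was far below the other two. H2-K1 was the only member whose groups did not overlap. In all, 3.51% of the genes tested had every low cys mouse below every normal cys mouse, and 3.32% had every low cys mouse above. The log2 fold change was -0.46 (SE 0.208, 95% interval -0.93 to 0.02), and its adjusted p in edgeR's quasi-likelihood test was 0.794. Exact permutation tests of the log2 CPM, two-sided, gave p = 0.0286 for H2-K1, the smallest that the 35 ways to place 7 mice in groups of 4 and 3 allow, and 0.114 to 0.971 for the other 9 members. Under library totals alone the H2-K1 groups all but touched, with low cys mouse 2 and normal cys mouse 4 both at 10.79 log2 CPM. Without low cys mouse 1 the log2 fold change was -0.24. Of the 50-base stretches in the exons of H2-K1, 9.63% also occur in other genes, most often in the class I gene H2-Q10, so that a share of its reads could be counted elsewhere or not at all.

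H2-D1, the other classical heavy chain of this strain, read 1540.8, 1388.3, 1248.4 and 1107.5 CPM in normal cys mice and 864.0, 1204.3 and 1039.5 CPM in low cys mice. Low cys mouse 1 was again lowest, but low cys mouse 2 was above normal cys mouse 4, so the groups overlapped. The log2 fold change was -0.35 (SE 0.18, 95% interval -0.76 to 0.06; edgeR adjusted p = 0.794). H2-D1 shares 12.8% of its 50-base stretches with other genes.

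B2m, which pairs with every class I heavy chain, read 1921.5, 1473.5, 1844.0 and 1394.3 CPM in normal cys mice and 1102.4, 1712.1 and 1332.5 CPM in low cys mice. The groups overlapped, with low cys mouse 2 above normal cys mice 2 and 4. The log2 fold change was -0.26 (SE 0.204, 95% interval -0.72 to 0.20; edgeR adjusted p = 0.799). No 50-base stretch of B2m occurs in another gene.

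Tapbp read 361.2, 368.2, 365.5 and 283.0 CPM in normal cys mice and 226.5, 341.1 and 262.6 CPM in low cys mice. Normal cys mouse 4 stood below the other normal cys mice, which were nearly equal, and the groups overlapped through it. The log2 fold change was -0.32 (SE 0.175, 95% interval -0.71 to 0.08; edgeR adjusted p = 0.794). Tapbp shares 23.2% of its 50-base stretches with other genes, the highest share among the members.

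**Figure D2:**
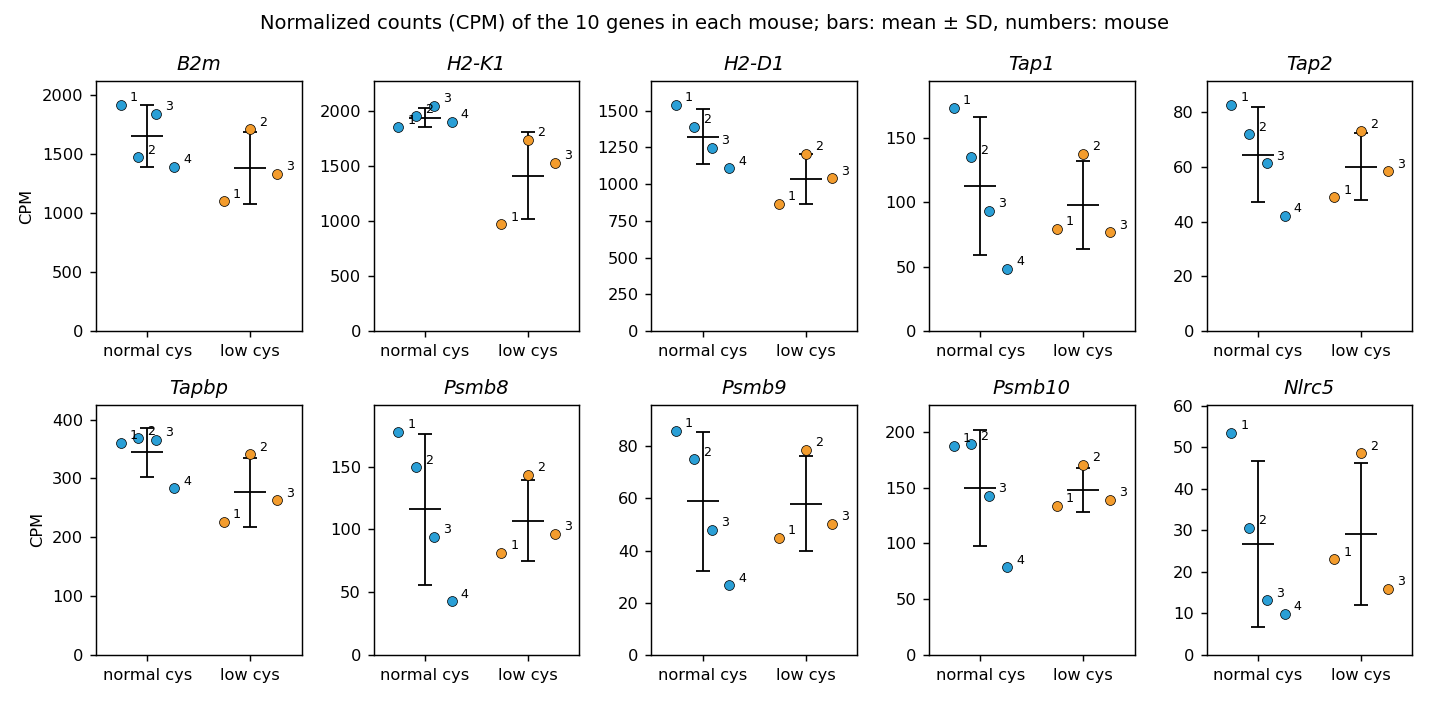
Each panel shows 1 gene, with CPM on a linear axis from 0, a point and number for each mouse (blue, 4 normal cys; orange, 3 low cys) and the mean with its SD. Only in H2-K1 do the low cys points, 970.2 to 1738.4 CPM, all lie below the normal cys points, 1850.0 to 2047.8 CPM.

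The transporter genes varied more between mice of one diet than between the diets. Tap1 read 173.3, 134.7, 93.5 and 48.6 CPM in normal cys mice and 79.3, 137.6 and 76.6 CPM in low cys mice. Tap2 read 82.5, 71.8, 61.3 and 42.1 CPM in normal cys mice and 48.9, 73.0 and 58.3 CPM in low cys mice. In both genes normal cys mouse 1 was highest, normal cys mouse 4 lowest and low cys mouse 2 the highest of its diet. The log2 fold change was -0.20 (SE 0.405, 95% interval -1.13 to 0.73) for Tap1 and -0.10 (SE 0.23, 95% interval -0.62 to 0.42) for Tap2. Of the exon bases of Tap2, 18.5% are overlapped by other annotated genes, among them Gm20496 and Gm15821 on the opposite strand, and reads from these cannot be told apart without strand.

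The immunoproteasome subunits behaved like the transporter. Psmb8, which takes the place of Psmb5, read 177.8, 149.6, 93.9 and 42.8 CPM in normal cys mice and 81.2, 143.5 and 96.4 CPM in low cys mice. Psmb9, which replaces Psmb6, read 85.8, 75.0, 47.9 and 26.7 CPM in normal cys mice and 44.9, 78.7 and 50.2 CPM in low cys mice. Psmb10, which replaces Psmb7, read 187.5, 189.3, 142.8 and 78.4 CPM in normal cys mice and 133.6, 170.3 and 139.3 CPM in low cys mice. Every low cys mouse lay inside the normal cys range for all 3 subunits. The log2 fold changes were -0.12 (SE 0.435) for Psmb8, -0.02 (SE 0.379) for Psmb9 and -0.02 (SE 0.278) for Psmb10, with 95% intervals of -1.11 to 0.88, -0.89 to 0.84 and -0.65 to 0.61. Under library totals alone the estimates of Psmb9 and Psmb10 turned to 0.09 and 0.11, while the median over all genes moved from 0.01 to 0.15.

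Nlrc5, the regulator, had the widest spread of the 10. It read 53.4, 30.6, 13.1 and 9.83 CPM in normal cys mice and 23, 48.5 and 15.9 CPM in low cys mice. Its highest normal cys mouse was 5.43 times its lowest, and the low cys mice lay within that range. It was the only member with a higher estimate in low cys (log2 fold change 0.12, SE 0.601, 95% interval -1.25 to 1.5; edgeR adjusted p = 0.964). The sign turned when single mice were left out, from -0.43 without low cys mouse 2 to 0.70 without normal cys mouse 1.

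The immunosubunits were compared with the constitutive subunits that they replace, within each mouse, where library size has no part. The ratio of Psmb8 to Psmb5, per kilobase, was 1.2, 0.916, 0.735 and 0.32 in normal cys mice and 0.572, 1.05 and 0.691 in low cys mice. Psmb9 to Psmb6 was 0.566, 0.424, 0.342 and 0.210 in normal cys mice and 0.382, 0.535 and 0.358 in low cys mice. Psmb10 to Psmb7 was 2.43, 2.92, 2.84 and 1.53 in normal cys mice and 2.03, 2.76 and 2.23 in low cys mice. In all 3 ratios normal cys mouse 4 was lowest and the diets overlapped. The size of each ratio depends on the annotated exon lengths and does not give the proportion of the subunits. The comparison between mice does not depend on these lengths. The log2 ratios differed between the diets by 0.06, 0.21 and -0.02 (low cys minus normal cys), with exact permutation p of 0.914, 0.686 and 0.914. With 1 mouse left out they ran from -0.32 to 0.31, from -0.05 to 0.42 and from -0.23 to 0.08, each lowest without normal cys mouse 4. The constitutive subunits had estimates near 0: Psmb5 had a log2 fold change of -0.04 (SE 0.121), Psmb6 of -0.14 (SE 0.147) and Psmb7 of 0.06 (SE 0.165). The SD of log2 CPM among normal cys mice was 0.16 for Psmb5, 0.20 for Psmb6 and 0.29 for Psmb7, against 0.92 for Psmb8, 0.76 for Psmb9 and 0.60 for Psmb10.

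**Figure D3:**
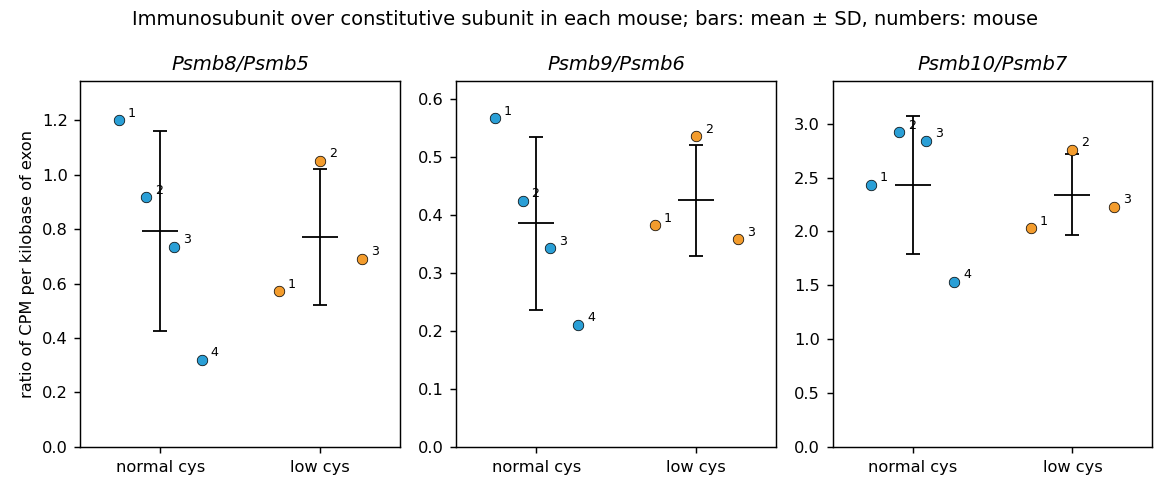
Each panel gives, on a linear axis from 0, the ratio of an immunosubunit to the constitutive subunit it replaces, in CPM per kilobase of exon, with a numbered point per mouse and the mean ± SD (4 normal cys mice, 3 low cys mice). The Psmb8 to Psmb5 ratio spans 0.32 to 1.2 among the normal cys mice and 0.572 to 1.05 among the low cys mice.

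Much of the variation lay within a diet. The SD of log2 CPM within diets had a median of 0.42 over the 10 members, against 0.22 over the 8624 genes with a mean of at least 10 CPM, and each of the 10 was above that median. The spread was not equal among the members. Among normal cys mice the highest level was 5.43 times the lowest for Nlrc5, 4.15 times for Psmb8, 3.56 times for Tap1, 3.21 times for Psmb9, 2.41 times for Psmb10 and 1.96 times for Tap2. It was 1.39 times for H2-D1, 1.38 times for B2m, 1.30 times for Tapbp and 1.11 times for H2-K1. Among low cys mice the order was another: it was 3.05 times for Nlrc5, 1.80 for Tap1, 1.79 for H2-K1, 1.77 for Psmb8 and 1.75 for Psmb9. It was 1.55 times for B2m, 1.51 for Tapbp, 1.49 for Tap2, 1.39 for H2-D1 and 1.27 for Psmb10.

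The members fell into 2 sets by how they varied over the 7 mice, a grouping made after the values were seen. Tap1, Tap2, Psmb8, Psmb9, Psmb10 and Nlrc5 went together, with Pearson r of log2 CPM between 0.82 and 0.99 over their 15 pairs, the highest for Psmb8 with Psmb9. B2m, H2-K1, H2-D1 and Tapbp went together with r between 0.78 and 0.93 over 6 pairs. The 24 pairs across the sets had r from -0.03 (H2-K1 with Nlrc5) to 0.77. All these values share the same 7 libraries and their scaling, and describe these mice. In the first set normal cys mouse 4 was lowest for every gene, whereas in H2-K1 and Tapbp low cys mouse 1 was lowest, as it was in B2m and H2-D1.

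**Figure D4:**
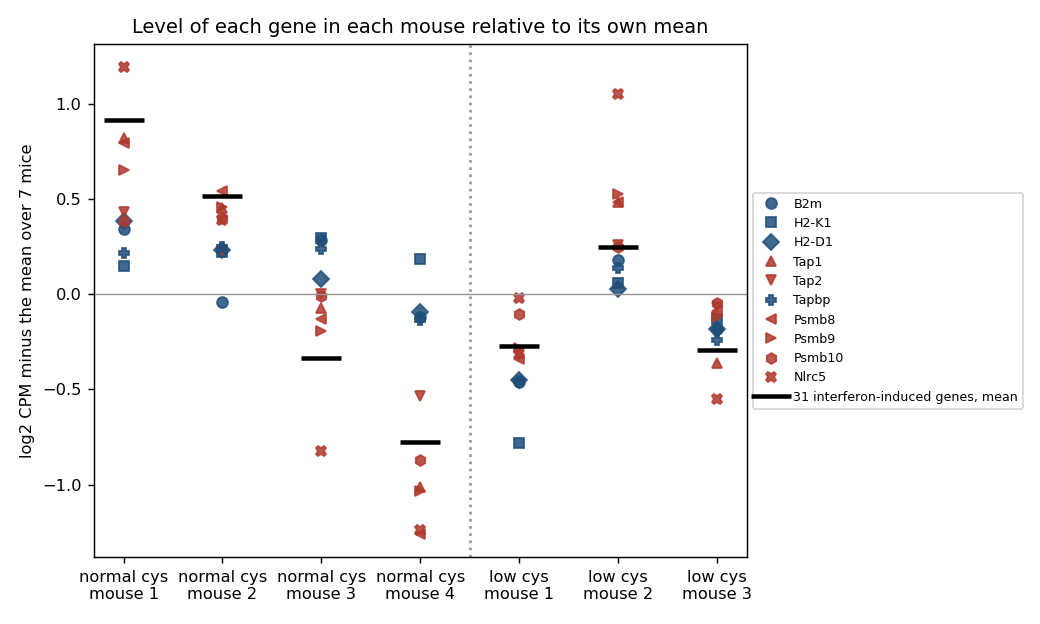
For each mouse the log2 CPM of each gene is shown minus its mean over the 7 mice, in red for Tap1, Tap2, Psmb8, Psmb9, Psmb10 and Nlrc5 and in blue for B2m, H2-K1, H2-D1 and Tapbp, and black bars give the mean of 31 interferon-induced genes on the same scale. Red points spread from 1.19 (Nlrc5, normal cys mouse 1) to -1.26 (Psmb8, normal cys mouse 4), and the lowest blue point is H2-K1 in low cys mouse 1 at -0.78.

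The genes most like the members were sought among 10308 genes with a mean of at least 5 CPM, by Pearson r of log2 CPM with the mean of the 10 members over the 7 mice. The closest was Ubd, which encodes the ubiquitin-like protein FAT10 (r = 0.989). It read 132.3, 94.3, 33.3 and 3.44 CPM in normal cys mice and 6.97, 92.0 and 18.5 CPM in low cys mice, a wider spread than any member had. Psme1, a subunit of the PA28 proteasome activator, came next (r = 0.987), with 200.4, 198.8, 160.4 and 131.9 CPM in normal cys mice and 145.0, 194.8 and 154.2 CPM in low cys mice. Both had overlapping diets. Herc6 (r = 0.966), Pafah1b3 (0.961), Me2 (0.960) and Arid1a (0.959) completed the 6 highest, all with overlapping diets.

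Of the other class I genes, 23 nonclassical and class I-like genes were listed and 16 tested. H2-T10, H2-T22 and H2-T23 were lower in low cys at an unadjusted edgeR p under 0.05, none was higher, and none passed adjustment. Across all genes tested 5.49% had such a p in either direction, which is also the share to set beside the unadjusted counts of the lists that follow. H2-T23, which encodes the Qa-1 molecule seen by NK and T cell receptors, read 468.1, 505.4, 472.9 and 426.7 CPM in normal cys mice and 276.7, 412.2 and 387.8 CPM in low cys mice. The groups did not overlap, low cys mouse 1 was lowest, and the log2 fold change was -0.38 (SE 0.165; edgeR adjusted p = 0.794). H2-T10 had a log2 fold change of -0.43 (SE 0.174) and H2-T22 of -0.39 (SE 0.166), with the same adjusted p. Of the 16, 11 were lower and 5 higher in estimate. Their median log2 fold change was -0.25, and their mean log2 CPM differed by -0.13, which turned to 0.02 under library totals alone and to 0.04 without low cys mouse 1. Stretches shared among these genes were not measured, and their counts may share reads.

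The loading and peptide-trimming genes lay on both sides of 0. Of 16 tested, 7 were lower and 9 higher in estimate, and the median log2 fold change was 0.05. Lnpep, an aminopeptidase that trims peptides in endosomes, was the only gene with an unadjusted edgeR p under 0.05 (log2 fold change 0.57, SE 0.211; edgeR adjusted p = 0.794). It read 8.09, 4.90, 7.14 and 7.69 CPM in normal cys mice and 9.18, 11.6 and 10.2 CPM in low cys mice, with no overlap. Erap1, which trims peptides in the endoplasmic reticulum, had a log2 fold change of 0.26 (SE 0.129), and Pomp, the proteasome maturation protein, of -0.23 (SE 0.14).

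Of 24 regulators of the pathway 23 were tested and none had an unadjusted edgeR p under 0.05. Their median log2 fold change was -0.11, with 16 lower in estimate. Irf1, an interferon regulatory factor, had a log2 fold change of -0.19 (SE 0.261), Irf9 of -0.30 (SE 0.138), Stat2 of -0.36 (SE 0.189) and Creb1 of 0.33 (SE 0.151). Ifng, the gene for interferon gamma itself, had 0 to 12 counts in a library and was not tested.

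The 31 genes of a list of interferon-induced genes outside the antigen presentation pathway were tested too. Of these 8 were lower in low cys at an unadjusted edgeR p under 0.05 and 0 higher, beside 5.49% of all genes in either direction, and 0 of 31 passed adjustment in edgeR. The median log2 fold change was -0.40. Rtp4, a receptor transporter induced by type I interferon, read 19.9, 21.6, 17.9 and 24 CPM in normal cys mice and 12.4, 11.4 and 13.1 CPM in low cys mice. The groups did not overlap, with a log2 fold change of -0.76 (SE 0.15), an edgeR adjusted p of 0.794 and a DESeq2 adjusted p of 0.0363. Irf7, the master regulator of type I interferon, had a log2 fold change of -0.72 (SE 0.188), and Oasl2, an antiviral protein, of -0.75 (SE 0.248). The mean log2 CPM of the 31 genes differed by -0.19 between the diets, by -0.05 under library totals alone, and by -0.47 (without normal cys mouse 4) to 0.09 (without normal cys mouse 1) with 1 mouse left out.

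Over the 7 mice the mean log2 CPM of the 31 interferon-induced genes was 4.64, 4.24, 3.39 and 2.95 in normal cys mice and 3.45, 3.97 and 3.43 in low cys mice. Normal cys mouse 1 was highest and normal cys mouse 4 lowest, as for the mean of the 10 members (8.18, 7.96, 7.62 and 7.04, then 7.30, 7.99 and 7.45). The Pearson r between both means was 0.94 over 7 mice, as a description of libraries that share their scaling. Against the members, the r was 0.82 for the nonclassical genes, 0.80 for T and NK cell markers, 0.64 for macrophage and dendritic cell markers, 0.54 for stroma and 0.27 for epithelium.

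In bulk tissue fewer cells of a type and less RNA per cell cannot be told apart, so the markers of the cells in the scrapings were set beside the members. All 10 epithelial markers were measured and none was at 0, with Fabp2, the intestinal fatty acid binding protein, the most abundant. Their mean log2 CPM was 10.88, 10.98, 10.96 and 10.94 in normal cys mice and 10.49, 10.79 and 10.79 in low cys mice, and their summed level was 28067, 30722, 37751 and 38129 CPM, against 18149, 27190 and 27048 CPM. All low cys mice were below all normal cys mice on both, and low cys mouse 1, lowest in H2-K1, was lowest. The separation of the mean was lost under library totals alone (10.84, 11.02, 10.81 and 10.85, against 10.65, 10.82 and 10.85), where its difference of -0.25 became -0.11, and it was -0.15 without low cys mouse 1. Of the 10, 9 were lower in estimate, Krt20 at an unadjusted edgeR p under 0.05, and the median log2 fold change was -0.21. Vil1, the microvillus protein villin, had a log2 fold change of -0.37 (SE 0.186), Krt20, a keratin of mature enterocytes, of -0.41 (SE 0.18) and Fabp2 of -0.94 (SE 0.46).

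Relative to the mean of the epithelial markers, an alternative added after the data were seen, the members were compared by the plain difference of their mean log2 CPM in place of the edgeR estimate. Before the reference was subtracted, this plain difference was below 0 in 6 of the 10 members, with 0.03 for Psmb8, 0.07 for Psmb9, 0.06 for Psmb10 and 0.28 for Nlrc5. After it was subtracted, H2-K1 was -0.03, -0.05, 0.04 and -0.05 on the log2 scale in normal cys mice and -0.57, -0.03 and -0.21 in low cys mice, and the groups overlapped. Its difference between the diets was -0.25 (exact permutation p = 0.114), and that of B2m was -0.02, of H2-D1 -0.10 and of Tapbp -0.08. In this reading 4 of the 10 members were lower in low cys, since Tap1 went from -0.11 to 0.14 and Tap2 from -0.08 to 0.17. The plain difference of H2-K1 without the reference was -0.50, of B2m -0.27, of H2-D1 -0.35 and of Tapbp -0.33.

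Markers of the other cells were mixed. Of 18 T and NK cell markers 17 were tested and 0 had an unadjusted edgeR p under 0.05, with a median log2 fold change of -0.19, a difference of the mean of -0.22 that was -0.07 without low cys mouse 1 and -0.39 without low cys mouse 2, and Gzma, a granzyme, the most abundant. Their summed level was 344.2, 229.6, 238.9 and 216.0 CPM in normal cys mice and 167.1, 264.6 and 203.7 CPM in low cys mice, highest in normal cys mouse 1 and lowest in low cys mouse 1. Ptprc, which encodes the pan-leukocyte antigen CD45, had a log2 fold change of 0.06 (SE 0.186), while Cd3g and Trac, parts of the T cell receptor complex, had -0.35 (SE 0.187) and -0.36 (SE 0.265) and Gzma had -0.55 (SE 0.318). Of 14 macrophage and dendritic cell markers 12 were tested and 0 passed at an unadjusted p under 0.05, with a median of 0.46. Their summed level was 132.3, 97.3, 95.8 and 36.0 CPM in normal cys mice and 136.9, 120.8 and 134.8 CPM in low cys mice, with Lyz2 (lysozyme) most abundant, and normal cys mouse 4, lowest in Tap1, Psmb8 and Psmb9, was also lowest here. Without that mouse the difference of their mean log2 CPM, 0.48, was 0.15. Itgam, Lyz2 and Csf1r had log2 fold changes of 0.88 (SE 0.504), 0.55 (SE 0.392) and 0.41 (SE 0.3).

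Stromal markers were higher in estimate in low cys in 11 of 11 tested (of 12), 3 of them (Dcn, Col3a1 and Des) at an unadjusted edgeR p under 0.05, with a median log2 fold change of 1.03. Their summed level was 39.5, 31.6, 28.4 and 33.0 CPM in normal cys mice and 44.9, 73.7 and 48.9 CPM in low cys mice, with Pdgfrb most abundant. The mean log2 CPM of the stromal list differed by 1.07. On that mean the diets overlapped, and under library totals alone all low cys mice were above all normal cys mice. Dcn, the matrix proteoglycan decorin, had a log2 fold change of 1.55 (SE 0.335; edgeR adjusted p = 0.794, DESeq2 adjusted p = 0.0438), Col3a1 of 1.58 (SE 0.399) and Des of 1.89 (SE 0.751). These estimates rest on few counts in a library: 26 to 110 for Dcn, 22 to 98 for Col3a1 and 2 to 109 for Des. The endothelial list had 8 of 9 tested higher in estimate (of 10), Ccl21a at an unadjusted p under 0.05, and a median of 0.91. Its mean log2 CPM differed by 0.76, with all low cys mice above all normal cys mice, also under library totals alone. Its summed level was 15.9, 14.1, 14.1 and 18.2 CPM in normal cys mice and 23.3, 19.3 and 18.7 CPM in low cys mice, with Lyve1 most abundant. Ccl21a had a log2 fold change of 1.86 (SE 0.475), Lyve1 of 0.55 (SE 0.27) and Tie1 of -0.82 (SE 0.406). Counts in a library were low here too: 5 to 84 for Ccl21a, 61 to 186 for Lyve1 and 33 to 156 for Tie1. Of 13 B and plasma cell markers 10 were tested and 2, Igj and Igkc, were higher at an unadjusted p under 0.05, with a median of 0.13 and Igkc most abundant. Igj and Igkc, which encode antibody chains, had log2 fold changes of 1.25 (SE 0.332) and 1.25 (SE 0.411), and Sdc1 had -0.19 (SE 0.157). The difference of the mean log2 CPM of this list, 0.47, was 0.09 without normal cys mouse 4. Their summed level was 766.6, 882.5, 726.7 and 474.3 CPM in normal cys mice and 911.5, 1193.2 and 1262.8 CPM in low cys mice. None of the genes measured from these marker lists was at 0 in all mice, and the part of the cell make-up in the levels of the 10 genes was not tested beyond the ratio to the epithelial markers.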

How the data were processed

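RNA from scraped ileum was sequenced by the authors from poly(A)-selected, stranded libraries as paired reads of the 7 mice. Per the study's methods, reads were trimmed, cleared of ribosomal reads, aligned with STAR to GRCm38 and counted over Ensembl exons with featureCounts. The strand setting and the treatment of reads with several matches are not given in the sources used here. The deposited values are raw counts per gene, with gene position and exon length as other columns of the authors' file. The submitters' processing notes name STAR 2.73a, Trim Galore 0.6.5, FastQC 0.11.8 and edgeR 3.28.

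From these counts, edgeR 4.0.16 in R 4.3.3 was run on all 7 libraries: filterByExpr (minimum count 10, minimum total 15), TMM normalization, and glmQLFit and glmQLFTest with robust estimation for low cys against normal cys, with Benjamini-Hochberg adjustment over all 14869 genes. The biological coefficient of variation was 25.5%. CPM are TMM-normalized, and log2 CPM use a prior count of 2. Exact permutation tests on single values were two-sided. DESeq2 1.42.0, limma-voom (limma 3.58.1), other scalings and filters, and leaving out each mouse were alternatives. No libraries were duplicates (lowest chi-square per degree of freedom between 2 libraries 22.3). The code was tested on simulated data.

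The members were picked by symbol, and they and the gene lists were chosen with earlier results of these data known. Named were all 10 members, the 3 genes with the smallest unadjusted edgeR p in each other list, Psmb5, Psmb6, Psmb7, Ifng, Irf1 and Ptprc, and the 6 genes most like the members. A further gene of this rule is not reported here. H2-K1 and H2-D1 upstream sequences were compared by local alignment of their 300-base windows.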

Additional observations from a re-analysis of the deposited data

Results flagged for a closer look

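Tapbp in the normal cys group had 1 mouse far from the others: mouse 4 read 283.0 CPM, against 361.2 to 368.2 CPM in the other 3. On the log2 scale the gap to its nearest neighbour was 0.927 of the group's range, above Dixon's critical value for 4 samples at the 95% level. Of 26 values examined in this way 1 passed, where chance gives about 1.3. Without this mouse Tapbp and H2-D1 had an unadjusted edgeR p under 0.05, as had 5.65% of the genes tested then.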

How the results depend on the processing

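No member passed edgeR's adjusted threshold under any alternative run. Over all genes, DESeq2 called 16 after adjustment where edgeR called 0, and leaving out 1 mouse gave 0 to 1. The count at an unadjusted edgeR p under 0.05 (817) ran from 258 without low cys mouse 1 to 1764 without normal cys mouse 1. Among the members that count (0) was 1 with DESeq2, 1 with limma-voom and 1 with no filter, each time H2-K1, beside 4.5%, 6.29% and 4.88% of all genes. It was 0 to 2 with 1 mouse left out (Tapbp and H2-K1 without low cys mouse 2, beside 6.3% of all genes). The 9 members with a lower estimate became 4 to 10 with 1 mouse left out (4 without normal cys mouse 1, 5 without low cys mouse 1) and 4 relative to the epithelial markers, an alternative that also takes plain mean differences, by which 6 were lower before the markers were subtracted. B2m (-0.42 to -0.11), H2-K1 (-0.61 to -0.24), H2-D1 (-0.45 to -0.23) and Tapbp (-0.47 to -0.18) kept a negative log2 fold change whichever mouse was left out.

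Signs turned for the other 6. With library totals the log2 fold change was 0.03 for Tap2, 0.09 for Psmb9 and 0.11 for Psmb10. That scaling moved each member up by 0.11 to 0.14, and the median over all genes from 0.01 to 0.15. With limma-voom the log2 fold change was 0.04 for Psmb8, 0.07 for Psmb9 and 0.06 for Psmb10. Relative to the epithelial markers it was 0.14 for Tap1, 0.17 for Tap2, 0.28 for Psmb8, 0.32 for Psmb9 and 0.31 for Psmb10, where the plain mean differences of Psmb8, Psmb9 and Psmb10 were already above 0 (0.03, 0.07 and 0.06) and those of Tap1 and Tap2 were not (-0.11 and -0.08). The cause of the turns with limma-voom and with 1 mouse left out was not tested. With 1 mouse left out the ranges were -0.51 to 0.08 for Tap1, -0.26 to 0.04 for Tap2, -0.39 to 0.17 for Psmb8, -0.28 to 0.22 for Psmb9, -0.23 to 0.13 for Psmb10 and -0.43 to 0.70 for Nlrc5.

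No paired analysis was possible because the labels give the mice no shared numbers. With 4 and 3 mice, the 95% intervals of Nlrc5, Psmb8 and Tap1 include both 0 and a log2 fold change of -1.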

Other observations

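MHC class II genes, which present peptides to CD4 T cells, gave no call between the diets: of 9 tested, 0 had an unadjusted edgeR p under 0.05, 6 were lower and 3 higher in estimate, and the median log2 fold change was -0.20. Their mean log2 CPM differed by -0.03, which became 0.12 under library totals alone, 0.17 without normal cys mouse 2 and -0.32 without normal cys mouse 4. H2-Ab1 read 985.1, 1010.7, 1003.1 and 540.4 CPM in normal cys mice and 468.3, 911.0 and 778.9 CPM in low cys mice. Normal cys mouse 4 and low cys mouse 1 were each the lowest of their diet, and the groups overlapped. Among the class I members, normal cys mouse 4 was lowest in Tap1, Tap2, Psmb8, Psmb9, Psmb10 and Nlrc5. In B2m, H2-K1, H2-D1 and Tapbp the lowest was low cys mouse 1. The log2 fold change was -0.30 (SE 0.284) for H2-Ab1, -0.28 (SE 0.278) for H2-Eb1 and -0.32 (SE 0.355) for H2-Aa. The Pearson r of the mean log2 CPM of the class II genes with that of the 10 class I pathway members was 0.71 over the 7 mice, a description with no test.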
